A study of Caenorhabditis elegans with 2 samples.

Results

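The insulin-like peptide genes of Caenorhabditis elegans were followed through the peak lists of a ZAG-1 chromatin immunoprecipitation sequencing (ChIP-seq) experiment. A gene was included when it was annotated as protein-coding in WBcel235 and its symbol was ins followed by a number, and daf-28 was added by name. These criteria gave 39 genes of 19985 protein-coding genes, made up of 38 ins genes and daf-28. RefSeq product names mention insulin for 37 of the 39, and the other two are daf-28 and ins-11. The symbol ins-38 belongs to a pseudogene and was not counted.

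Chromatin was taken from whole L2 larvae of the strain OP83, with males and females pooled and the age in hours not known. OP83 has the genotype unc-119(ed3) III; wgIs83, in which the insertion wgIs83 supplies the zag-1 gene fused to eGFP. The 2 biological replicates shared this strain, stage and genotype and formed 1 group, and no second condition was analysed here. ZAG-1, the worm's ZEB protein, is a DNA-binding factor with zinc fingers and a homeodomain that takes part in the differentiation of neurons. All binding is therefore that of a tagged protein made from an inserted copy, and because whole animals were used, strong binding in few cells and weak binding in many cells cannot be told apart.

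Insulin-like peptides are small secreted hormones that act on DAF-2, the single insulin and IGF receptor of the worm. Receptor activity runs through a phosphoinositide 3-kinase cascade that keeps the FoxO transcription factor DAF-16 out of the nucleus, and it is known for its control of dauer entry, growth, stress resistance and lifespan. Some of the peptides have been reported to activate DAF-2 and others to block it, and many are made by sensory neurons or by the intestine.

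Of these genes, 2 were assigned a summit in the list of peaks that passed the authors' irreproducible discovery rate (IDR) threshold, and the pair differed in what lay beneath the summit. The 201 bp around the summits are shown because they separate these cases: the ins-39 summit lay in unique sequence upstream of the gene, while the ins-13 summits lay at genes for small RNAs. All are reference sequence of WBcel235 (the assembly named ce11 in the deposited lists), read from RefSeq on the plus strand, 5′ to 3′, with the summit at the centre. Capitals mark a CAGCTG E-box in the ins-39 window and, in the other windows, every base within an annotated RNA gene. These genes are sls-2.2 and C17C3.23, which overlap on opposite strands, in the windows at sls-2.2 and C17C3.23, and sls-2.3 and C17C3.22, likewise overlapping, in the last. The windows cover chrX:1344967-1345167, chrII:5543467-5543667, chrII:5543671-5543871 and chrII:5544189-5544389 in the order printed, and the last surrounds a pooled summit that did not pass the IDR threshold.
ins-39 summit: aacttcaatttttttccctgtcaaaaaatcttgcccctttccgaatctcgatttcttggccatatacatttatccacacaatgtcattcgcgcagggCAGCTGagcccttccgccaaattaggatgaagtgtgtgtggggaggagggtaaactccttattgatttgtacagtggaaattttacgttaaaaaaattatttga
sls-2.2 summit: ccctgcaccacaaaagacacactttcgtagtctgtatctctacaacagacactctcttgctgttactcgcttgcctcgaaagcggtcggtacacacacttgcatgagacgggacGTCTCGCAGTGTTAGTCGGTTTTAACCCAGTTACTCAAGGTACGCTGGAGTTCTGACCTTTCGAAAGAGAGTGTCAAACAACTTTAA
C17C3.23 summit: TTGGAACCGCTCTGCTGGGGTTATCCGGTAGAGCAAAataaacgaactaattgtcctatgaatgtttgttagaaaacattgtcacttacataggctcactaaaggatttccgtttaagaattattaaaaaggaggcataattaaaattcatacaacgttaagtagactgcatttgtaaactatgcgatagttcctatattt
sls-2.3 summit: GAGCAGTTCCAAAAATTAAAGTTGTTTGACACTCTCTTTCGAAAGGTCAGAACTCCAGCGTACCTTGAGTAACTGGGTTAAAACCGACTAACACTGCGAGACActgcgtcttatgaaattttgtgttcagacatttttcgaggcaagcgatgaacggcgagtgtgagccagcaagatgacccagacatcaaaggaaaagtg

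The share of insulin-like peptide genes with a strong ZAG-1 peak was not distinguishable from that of all genes. Each summit went to whichever protein-coding gene had the nearest 5′ end, up to 5 kb away. In the IDR-thresholded list of 1803 peaks, 2 of 39 members had an assigned summit (5.13%, 95% Wilson interval 1.42% to 16.9%), beside 6.99% of all protein-coding genes. The genes were ins-13 and ins-39. The interval includes the share of all genes, so no difference in either direction could be seen at this threshold. Intervals cover the counting of genes only, and the read depth behind the peaks is unknown.

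The fuller lists, which also hold weak candidate peaks, gave more members but again no larger a share than among all genes. In the pooled list of 16325 peaks, 10 members had an assigned summit (25.6%, interval 14.6% to 41.1%), beside 41.6% of all protein-coding genes. Replicate 1, with 24146 peaks, gave 16 members (41.0%, interval 27.1% to 56.6%), beside 55.1% of all genes. Replicate 2, with 29374 peaks, gave 21 members (53.8%, interval 38.6% to 68.4%), beside 62.5% of all genes. The members' share lay below that of all genes in each of the 4 lists, and the interval excluded the share of all genes only in the pooled list, where its upper limit was 41.1%. The lists share the same libraries, and the difference was not tested.

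The room in which a summit could be assigned was about the same for members as for other genes. The stretch of sequence nearest to a gene's own 5′ end, within 5 kb on either side, had a median of 3909 bp for the members and 3859 bp for all protein-coding genes. Member genes themselves were short, with a median length of 655 bp beside 2026 bp for all genes. The shortest was 335 bp and the longest 2788 bp.

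ins-39, on the X chromosome, had the clearest peak of the family. The gene lies at chrX:1343758-1344421 on the minus strand, and its IDR-thresholded peak covers chrX:1344990-1345094, a width of 105 bp. The summit at 1345067 was 646 bp upstream of the 5′ end, in intergenic sequence, with an authors' score of 152 and rank 40 of the 1803 peaks. In replicate 1 the summit was at 1345066, with a score of 116 and rank 27 in that replicate's list. In replicate 2 it was at 1345074, with a score of 33.8 and rank 201. The replicate summits were 8 bp apart, and both were among the strongest peaks of their list. Scores have no common scale across lists, so ranks are the better guide.

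No other annotated gene lay closer to the ins-39 summit. On one side the next gene was ttr-37, a transthyretin-related gene, whose nearer end was 7892 bp away, and on the other a pseudogene began at a distance of 5486 bp. The kinase gene pdk-1, which acts downstream of DAF-2, lay on the same stretch of the X chromosome with its nearer end 17081 bp from the summit. Replicate 2 also held a weak summit 1752 bp upstream of ins-39, with a score of 4.83 and rank 13127, which had no counterpart in replicate 1.

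ins-13, on chromosome II, had the higher score, but its summits lay past the far end of the gene and next to genes for other RNAs. The gene occupies chrII:5544512-5544864 on the minus strand. The stronger IDR-thresholded peak covers chrII:5543458-5543662, with its summit at 5543567, a score of 173 and rank 30. That summit was 1297 bp from the 5′ end of ins-13 and 945 bp past its 3′ end. The nearest gene of any kind was sls-2.2, one of the genes for SL2, the small RNA that supplies the spliced leader for downstream genes of operons. The summit was 31 bp upstream of the 5′ end of sls-2.2.

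The second IDR-thresholded peak at ins-13, at chrII:5543583-5543958, was weaker. Its summit at 5543771 had a score of 36.8 and rank 1274, and it lay 741 bp past the 3′ end of ins-13. The nearest 5′ end was that of the non-coding RNA gene C17C3.23, 73 bp away. In the pooled list a weaker summit, at 5544289, had a score of 18.6 and rank 3784, and it lay 16 bp upstream of sls-2.3, a further SL2 RNA gene, on the minus strand. All of these summits were nearer to an RNA gene than to ins-13.

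The replicates placed these summits at nearly the same bases. At sls-2.2, replicate 1 had its summit at 5543556 (score 122, rank 23) and replicate 2 at 5543567 (score 50.2, rank 59). At C17C3.23, replicate 1 had a score of 41.7 and rank 422, whereas replicate 2 had 7.46 and rank 4783. At sls-2.3 the order was the other way, with a score of 6.72 and rank 14197 in replicate 1 and 10.8 and rank 2200 in replicate 2. The summit at sls-2.2 was thus near the top of both lists, and each of the other sites ranked higher in 1 replicate than in the other. The only summit over ins-13 itself was in replicate 2, 48 bp inside the gene in a coding exon that overlaps acdh-2, with a score of 3.09 and rank 28211.

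**Figure D1:**
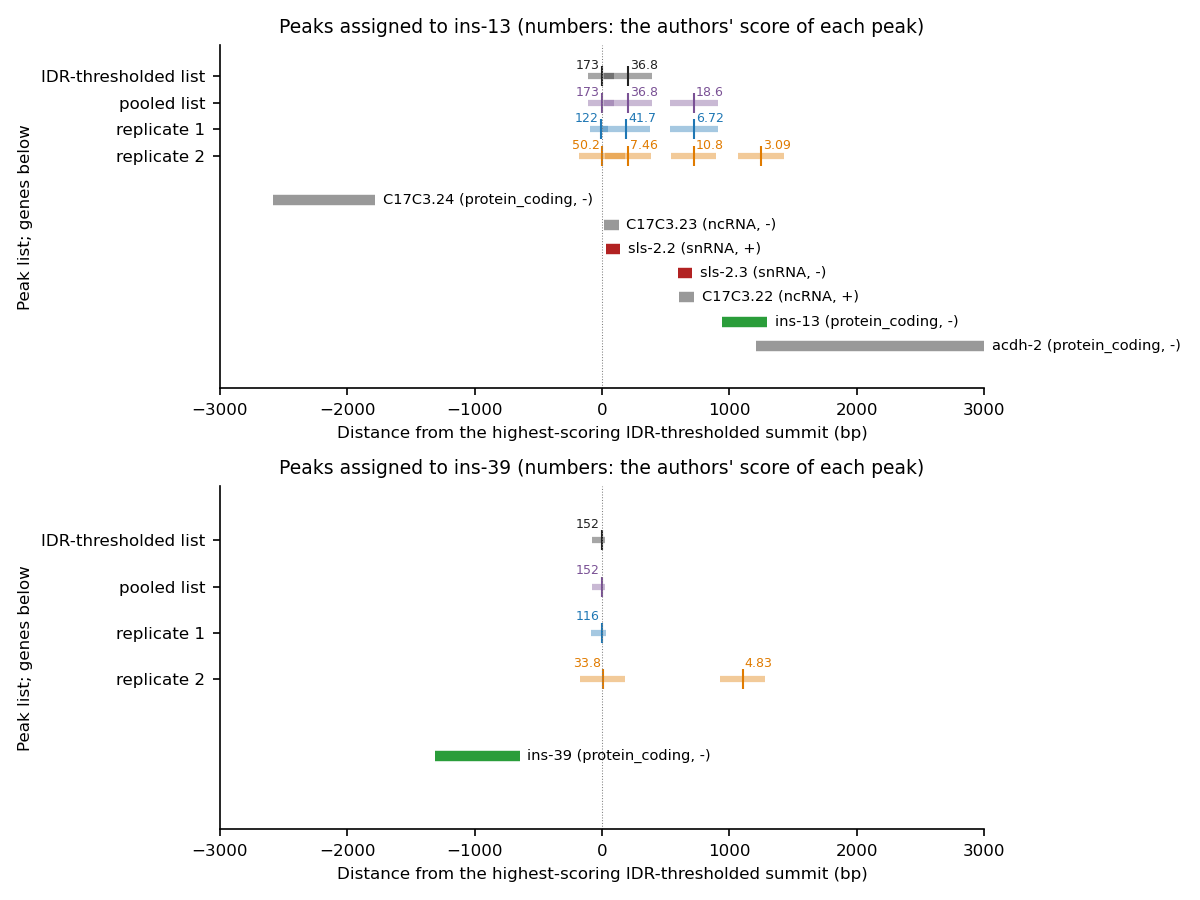
Peaks (bars) and summits (ticks, with the authors' scores) of the 4 lists around the highest-scoring IDR-thresholded summit at ins-13 and at ins-39, with annotated genes below; the horizontal axis is distance from that summit in bp. At ins-13 the summits with scores of 173 and 36.8 sit at sls-2.2 and C17C3.23 and not over ins-13, while at ins-39 the summit stands alone, 646 bp upstream of the gene.

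The SL2 RNA genes were looked at as a group because 2 of them lie beside ins-13. Of 18 sls-2 genes in the annotation, 4 had an IDR-thresholded summit within 100 bp of the 5′ end, each upstream by 16 to 57 bp, with scores from 76.7 to 228. The pooled list had such a summit at 7 of the genes, replicate 1 at 8 and replicate 2 at 11. The summit assigned to ins-13 was therefore 1 of several at genes of this RNA class. Of the other genes with an IDR-thresholded summit, sls-2.1 and sls-2.4 were 92.7% and 96.4% identical to sls-2.2. Whether signal at these copies is independent was not tested, and the share of other RNA genes with such a summit was not worked out. The 50 bases upstream of the SL2 RNA genes beside ins-13 are shown in the direction of transcription, with the 17 bases shared up to the 5′ end in capitals. These stretches lie at chrII:5543548-5543597 on the plus strand and chrII:5544274-5544323 on the minus strand.
upstream of sls-2.2: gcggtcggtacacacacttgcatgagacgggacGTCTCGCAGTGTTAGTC
upstream of sls-2.3: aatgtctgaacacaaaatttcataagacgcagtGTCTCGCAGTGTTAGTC

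Over the 50 bases the upstream stretches were 74% identical, and the 110 bp genes themselves were 97.3% identical. Short reads from such copies can map to either. Of the 166 stretches of 36 bases in the summit window at sls-2.2, 52 (31.3%) occur more than once in the genome, and at sls-2.3 the number was 62 (37.3%). In the windows at ins-39 and C17C3.23 it was 0. Whether reads with several matches were kept is not given in the sources used here, so the share of signal at sls-2.2 and sls-2.3 that came from other copies was not tested.

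When the 5′ ends of genes of every biotype were allowed to compete for summits, 1 member kept an IDR-thresholded summit (2.56%), beside 4.62% of all protein-coding genes. That member was ins-39. Such losses were common across the genome: of 1583 assigned IDR-thresholded summits, 586 (37.0%) were nearer to a gene of another biotype. For members the count was 2 of 3 summits in the IDR-thresholded list, 4 of 14 in the pooled list, 9 of 23 in replicate 1 and 9 of 32 in replicate 2. The share of all summits was worked out for the IDR-thresholded list only, so the other member counts have no such value beside them.

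The letters under the member summits were compared with those under all IDR-thresholded summits, on both strands and within 100 bp. The E-box CAGGTG, the type bound by ZEB factors, was in 0 of 3 member windows and in 1.89% of all windows. GAGAGA was in 0 of 3 and in 49.4% of all. The DAF-16 binding element GTAAACA was in 0 of 3 and in 2.66% of all. CAGCTG, which was added after the letters of the window were seen, began 3 bp before the ins-39 summit and was found in 6.21% of all windows. CAGCTG reads the same on both strands, and none of these motifs overlapped another in the member windows. With 3 windows from 2 loci these counts are descriptive only.

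The member windows also differed in base composition. GC content was 39.8% at ins-39, 47.8% at sls-2.2 and 33.8% at C17C3.23. All 1803 windows had a mean of 45.6% ± 6.83 (SD over windows). The C17C3.23 window was thus more than 1 SD below the mean, and the other two were within 1 SD of it.

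Below the IDR threshold, replicate support was limited to a few members. Of the 39 genes, 10 had an assigned summit in both replicate lists (25.6%), beside 42.4% of all protein-coding genes. A stricter count, with summits of the replicates no more than 200 bp apart, left 5 members (12.8%), beside 24.4% of all genes. These were ins-1, ins-10, ins-13, ins-36 and ins-39. A further 6 members had a summit in replicate 1 alone, 11 in replicate 2 alone and 12 in neither. The shares of all genes in these classes were not worked out. Over all protein-coding genes 55.1% had a summit in replicate 1 and 62.5% in replicate 2, so lacking one in a replicate was common. The genes without an assigned summit in any list were ins-6, ins-7, ins-9, ins-11, ins-14, ins-15, ins-16, ins-19, ins-23, ins-26, ins-30 and ins-31.

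**Figure D2:**
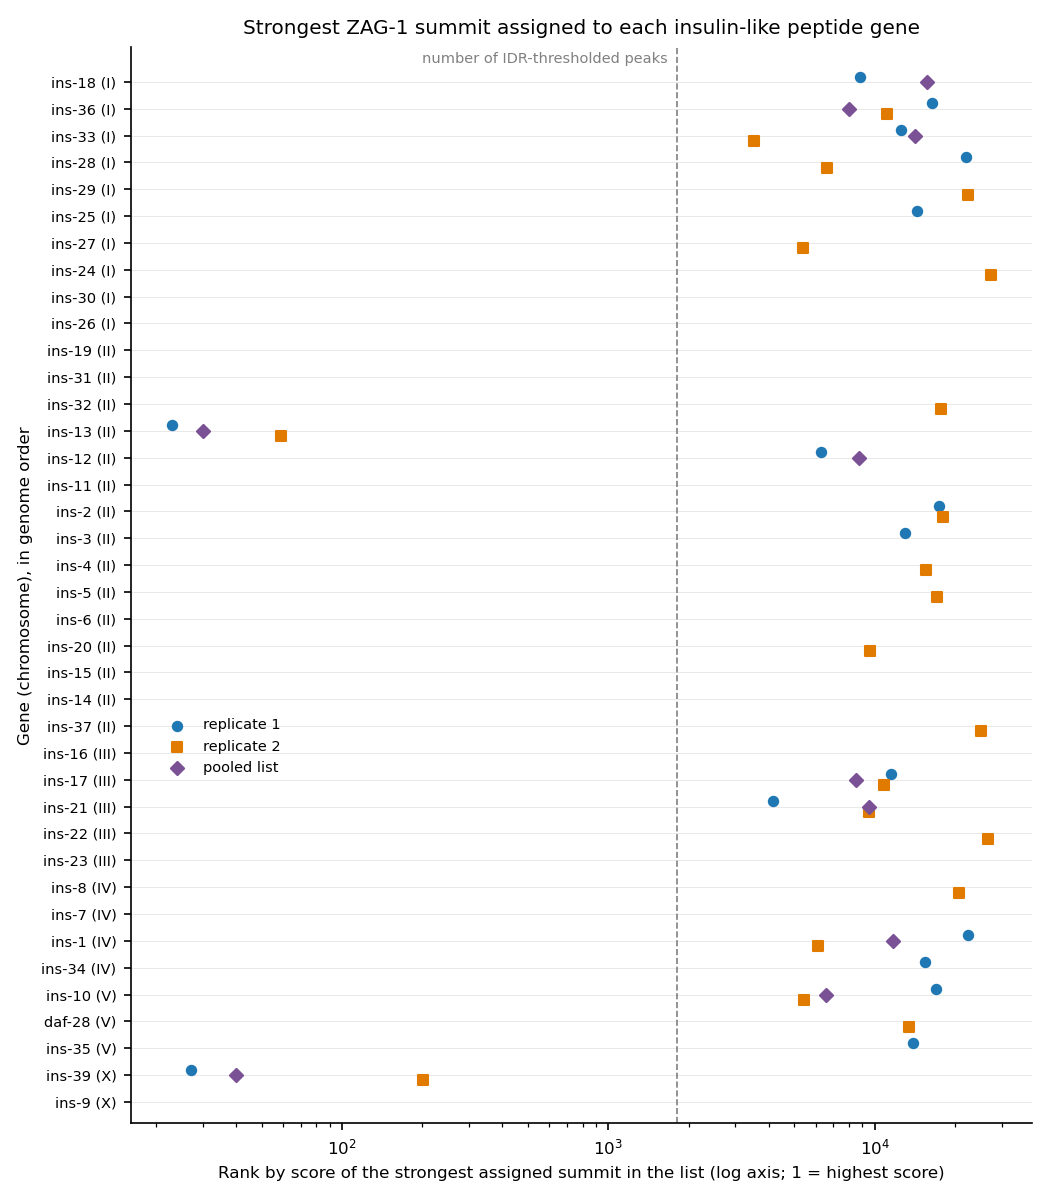
Rank by score of the strongest assigned summit of each of the 39 genes in replicate 1, replicate 2 and the pooled list (log axis, 1 is the highest score), with genes in genome order and a dashed line at rank 1803, the length of the IDR-thresholded list. Points for ins-13 (ranks 23, 59 and 30) and ins-39 (ranks 27, 201 and 40) lie left of the line, every other point lies to its right, and a gene with no point had no assigned summit.

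The reported agonists of DAF-2 had no summit in the IDR-thresholded or the pooled list. Of 6 such genes the counts were 0 in the IDR-thresholded list (interval 0% to 39.03%, beside 6.99% of all genes) and 0 in the pooled list (the same interval, beside 41.6%). Each replicate had 2 (33.3%, interval 9.68% to 70.0%), beside 55.1% and 62.5% of all genes, so with 6 genes the replicate shares could not be told from those of all genes. For daf-28, which promotes reproductive growth over dauer arrest, replicate 1 had no summit and replicate 2 had 1 in an intron, 147 bp inside the gene, with a score of 4.76 and rank 13515. The nearest IDR-thresholded summit to daf-28 was 82607 bp away. For ins-6, which promotes exit from dauer, and ins-7, an intestinal peptide repressed by DAF-16, no list had an assigned summit.

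The remaining reported agonists were each seen in 1 replicate. ins-4 had a summit in replicate 2 alone, 373 bp inside the gene in a coding exon, with a score of 4.44 and rank 15638. ins-3 had one in replicate 1 alone, 1817 bp upstream, with a score of 7.0 and rank 13033. For ins-35 the only summit was in replicate 1, 809 bp downstream of the 5′ end and nearer to a pseudogene, with a score of 6.79 and rank 13876. No agonist had an assigned summit in both replicate lists, beside 42.4% of all protein-coding genes and 25.6% of the 39 insulin-like peptide genes. With so few agonists this is descriptive only, and the difference was not tested.

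The reported antagonists, ins-1 and ins-18, both had a pooled summit (2 of 2, interval 34.2% to 100%), beside 41.6% of all genes. With 2 genes this share could not be told from that of all genes. Neither summit passed the IDR threshold. For ins-1, which acts in salt chemotaxis learning, the pooled summit was 2726 bp upstream with a score of 10.7 and rank 11677. Replicate 1 had it at 2724 bp upstream with a score of 5.26 and rank 22396, near the end of its list, and replicate 2 at 2852 bp upstream with a score of 6.75 and rank 6110. For ins-18 the pooled summit was 1815 bp upstream with a score of 9.32 and rank 15718, near the end of the pooled list. Replicate 1 had a summit 1952 bp upstream of ins-18 with a score of 8.38 and rank 8806, and replicate 2 had none.

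Other members with a pooled summit had scores from 9.78 to 13.9, and the lowest score in the IDR-thresholded list among assigned summits was 29.6. ins-10 had 3 pooled summits, the strongest with a score of 13.9 and rank 6549 in an intron of the neighbouring gene vps-39. Its closest replicate summits were 91 bp apart, with rank 18100 in replicate 1 and 5434 in replicate 2. ins-36 had a pooled summit in an intron of rsy-1, 1709 bp upstream, with a score of 12.6, and its replicate summits were 143 bp apart at ranks 16399 and 11090. Both genes thus shared their site with the body of another gene.

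For ins-12, ins-17, ins-21 and ins-33 the replicates did not place a summit at the same site. ins-12 had a pooled summit 226 bp upstream (score 12.1) and 1 in replicate 1 at 224 bp upstream (score 9.79, rank 6264), but none in replicate 2. ins-17 had a pooled summit in its own coding exon, 73 bp from the 5′ end, with a score of 12.3, and its closest replicate summits were 579 bp apart. ins-21 had the same site, 2533 bp upstream, in the pooled list (score 11.7) and in replicate 1 (score 12.0, rank 4156), whereas the summit of replicate 2 was 1264 bp from it. The ins-33 summits, with a pooled score of 9.78, were nearer to a non-coding RNA gene, and the closest replicate summits were 306 bp apart. ins-2 and ins-28 had summits in both replicates, 4113 bp and 946 bp apart, and none in the pooled list.

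Most member summits were also weak by the authors' own q-values. A −log10 q-value of 1.3 or more, which is a q-value of about 0.05, was reached by 4 of 14 pooled member summits, namely the 3 at ins-13 and the 1 at ins-39. Among all assigned pooled summits 23.9% reached it. In replicate 1 it was reached by 4 of 23 member summits (17.4%), beside 18.2% of all assigned summits, and the fourth after ins-13 and ins-39 was that of ins-21. In replicate 2 it was reached by 4 of 32 (12.5%), beside 15.3%, and the fourth was that of ins-33. Member summits thus reached this value about as often as summits elsewhere.

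The middle of the score distribution was likewise close to that of all assigned summits. Median scores of member and of all assigned summits were 12.2 and 12.5 in the pooled list, 6.72 and 7.23 in replicate 1, and 4.60 and 4.55 in replicate 2. Members with a summit in replicate 1 alone had best ranks from 6264 to 15482, and those in replicate 2 alone from 5359 to 27356. None of these 17 members came near the strongest peaks of either list.

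The position of member summits was read against that of all assigned summits. Within the stretch from 500 bp upstream to 100 bp downstream of the 5′ end lay 0 of 3 IDR-thresholded, 2 of 14 pooled, 2 of 23 replicate 1 and 3 of 32 replicate 2 summits. Of all assigned summits, 40.3%, 22.1%, 19.1% and 17.3% lay in the same stretch in these lists, and with so few member summits the difference was not tested. Of the 32 in replicate 2, 20 were intergenic, 6 intronic, 3 in coding sequence and 3 in exons without coding sequence at the summit. The same breakdown was not made for all assigned summits, so these counts describe the member summits only.

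**Figure D3:**
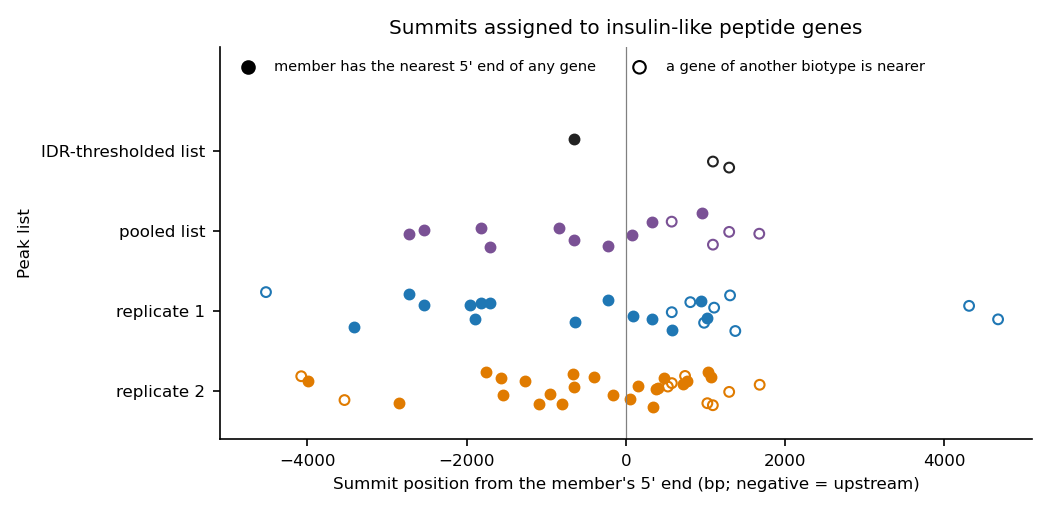
Position of every summit assigned to a member, in bp from the member's 5′ end (negative is upstream), by list; filled points have the member as the nearest gene of any kind and open points have a nearer gene of another biotype. Points spread over several kb on both sides, and the IDR-thresholded list has 1 filled point, at 646 bp upstream, and 2 open points, at 1093 and 1297 bp downstream.

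Many insulin-like peptide genes sit side by side, and the clusters differed in how many peaks they held. With a gap of at most 10 kb, 25 of the 39 genes fell into 7 clusters. The cluster of ins-28, ins-29, ins-25, ins-27, ins-24, ins-30 and ins-26 on chromosome I, with 5 kb on each side, spans 35.4 kb. It held 0 IDR-thresholded summits, 1 pooled summit, 4 of replicate 1 and 10 of replicate 2. At each list's mean density over the genome, a span of this length would hold 0.637, 5.76, 8.53 and 10.4. This cluster was thus below the mean in the pooled list and in replicate 1, and close to it in replicate 2.

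The cluster on chromosome II with ins-2, ins-3, ins-4, ins-5, ins-6 and ins-20 holds 5 of the 6 genes that RefSeq names as beta-type insulins, and ins-7 is the other. Over 32.8 kb it held 0 IDR-thresholded and 0 pooled summits, 2 of replicate 1 and 6 of replicate 2. The mean density would give 0.590, 5.34, 7.90 and 9.61. The cluster of ins-13, ins-12 and ins-11 had 2 IDR-thresholded summits in 22.7 kb beside 0.407 at mean density, both of them those at sls-2.2 and C17C3.23, and 5 pooled summits beside 3.69. The pair ins-15 and ins-14 had 1 IDR-thresholded summit in 11.5 kb beside 0.206, the one at exos-8. The pair ins-8 and ins-7 had 1 in 12.5 kb beside 0.225, with 3 pooled summits beside 2.04 and 6 of replicate 1 beside 3.01. These 3 clusters were thus above the mean in strong peaks, and the other clusters held 0 IDR-thresholded summits. Because the mean density gave at most 0.637 per cluster, a single summit was enough to place a cluster above it. The alpha-type genes ins-21, ins-22 and ins-23 on chromosome III had 0 IDR-thresholded summits and 1 pooled summit in 14.9 kb. None of these differences from the mean density was tested.

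Some members had a strong peak nearby that was assigned to a neighbouring protein-coding gene. Only protein-coding 5′ ends were compared in this assignment. An IDR-thresholded summit lay within 5 kb of the 5′ end of 9 members (23.1%), beside 15.6% of all protein-coding genes, whichever gene it was assigned to. For 7 of these 9 the summit was nearer to another protein-coding gene. The strongest was 1917 bp from ins-17, with a score of 126 and rank 62, and lay 263 bp upstream of rps-1, a gene for a small ribosomal subunit protein. Near ins-37 a summit with a score of 65.1 was 899 bp upstream of F08G2.5, but the 5′ end of the non-coding RNA gene F08G2.12 was nearer to it. A single summit beside exos-8, an exosome subunit gene, with a score of 31.1, counted for both ins-14 and ins-15. The remaining neighbours were nhr-34 near ins-8 (score 45.3), F54D10.5 near ins-32 (31.5) and ubc-21 near ins-9 (30.6).

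The genes that process the peptides and those that carry the signal had a larger share with an IDR-thresholded summit than the ligands, 2 of 39. Of 10 genes for peptide processing and secretion, 6 had one (60%, interval 31.3% to 83.2%), beside 6.99% of all genes. With genes of every biotype competing, 3 of the 10 kept one (30%), beside 4.62% of all genes, namely egl-21, ida-1 and sbt-1. The 6 were egl-3, the proprotein convertase that cleaves neuropeptide precursors (best score 116), unc-31, the CAPS protein of dense core vesicle release (69.1), egl-21, the carboxypeptidase that trims the cleaved peptides (69.0), ida-1, a dense core vesicle membrane protein (63.6), sbt-1, the chaperone of EGL-3 (47.9), and kpc-1, a further convertase (43.0). The egl-21 and sbt-1 summits were 39 and 131 bp upstream of the 5′ end. The summits of egl-3, unc-31 and kpc-1 and the strongest of ida-1 were nearer to a gene for a non-coding RNA. The ida-1 summit that was kept had a score of 30.7 and rank 1712.

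Of 13 genes from the receptor to FoxO, 6 had an IDR-thresholded summit (46.2%, interval 23.2% to 70.9%), beside 6.99% of all genes. With every biotype competing, 4 of the 13 kept one (30.8%), beside 4.62%, namely pdk-1, pptr-1, akt-2 and ftt-2. The 6 were pdk-1, a kinase that activates AKT (best score 75.0), pptr-1, a phosphatase subunit acting on AKT-1 (69.8), daf-16 (51.3), akt-2 (44.2), ftt-2, a 14-3-3 protein that binds DAF-16 (42.4), and daf-2 itself (30.3). The daf-2 summit was 4604 bp from the 5′ end, with a long non-coding RNA gene nearer, and both daf-16 summits and the strongest ftt-2 summit were also nearer to a non-coding RNA gene. These lists were chosen with earlier results of the same data known, and the genes are longer than the ligand genes, with medians of 6643 bp in the pathway and 5163.5 bp in processing beside 655 bp. Their assignable stretch was also wider, with medians of 7533.5 bp and 6496 bp beside 3909 bp, and neither the difference nor the part of length in it was tested.

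The shares of other neuropeptide genes in the IDR-thresholded list could not be told from the 6.99% of all genes. Of 31 FMRFamide-like peptide (flp) genes, 0 had an assigned summit, with an upper Wilson limit of 11.0%. Of 71 neuropeptide-like protein (nlp) genes, 2 had one (2.82%, interval 0.776% to 9.70%), namely nlp-76 (score 35.7) and nlp-9 (30.3). The nlp-76 summit was nearer to a non-coding RNA gene. With every biotype competing, 1 of the 71 kept one (1.41%), beside 4.62% of all genes. In the pooled list, where 41.6% of all genes had a summit, the groups spread apart, with 20 of 31 flp genes (64.5%, interval 46.9% to 78.9%), 33 of 71 nlp genes (46.5%, interval 35.4% to 58.0%) and 10 of 39 insulin-like genes (25.6%, interval 14.6% to 41.1%). The intervals of the flp and insulin-like genes did not overlap in the pooled list. In replicate 1, 26 flp genes (83.9%, interval from 67.4%) had a summit, beside 55.1% of all genes. In replicate 2, 27 flp genes (87.1%, interval from 71.1%) had one, beside 62.5% of all genes. The insulin-like intervals reached 56.6% and 68.4% there, below the flp intervals, and both included the share of all genes. The flp genes had a median assignable stretch of 6580.5 bp and the nlp genes 5632.5 bp, wider than that of the insulin-like genes, and the difference between the groups was not tested.

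**Figure D4:**
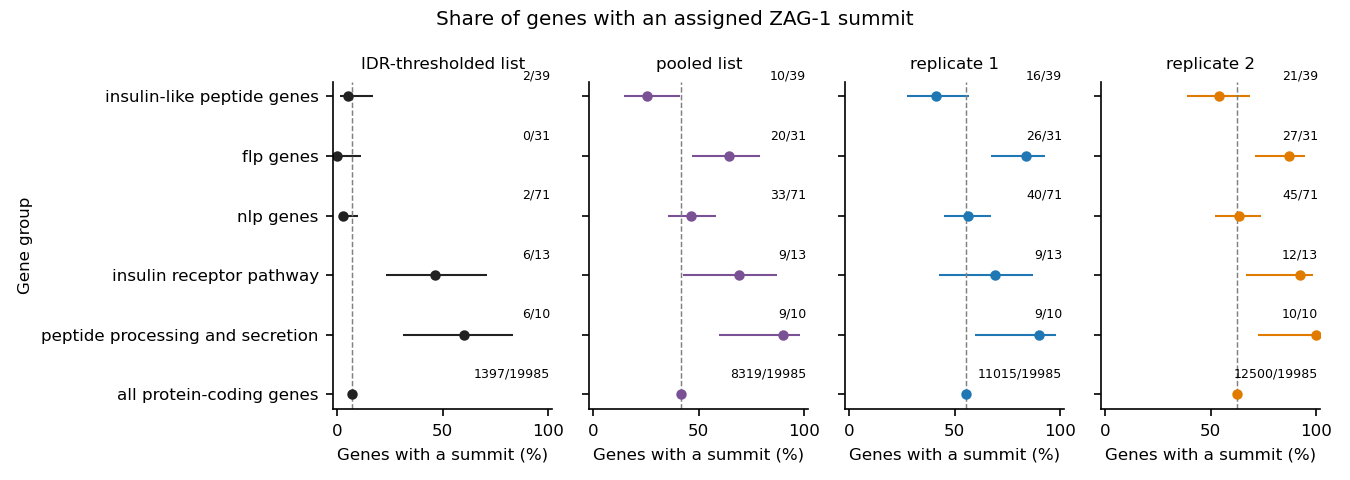
Share of genes with an assigned summit (%, points) in each gene group and list, with 95% Wilson intervals (lines), the counts, and a dashed line at the share of all protein-coding genes. Insulin-like peptide genes lie left of the dashed line in all 4 lists (5.13%, 25.6%, 41.0% and 53.8%), while the processing and receptor pathway genes lie right of it.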

How the data were processed

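ChIP-seq peak lists of 2 biological replicates of OP83 L2 larvae were used, all in ce11, the same assembly as WBcel235. Per the deposited file list, each replicate's peaks were made from its alignment and a control alignment, the pooled list from both replicates, and the IDR-thresholded list from these. The sources used here do not give the caller, its filters, the IDR threshold or the scaling of the score. The authors' deposited score per peak was used to rank peaks within a list, and the deposited −log10 q-value to describe them. The authors' deposited summit offset in bp gave the position. All 1803 IDR-thresholded peaks were also in the pooled list. Depth per sample is unknown, so precision could only be given as 95% Wilson intervals of gene counts. The ce10 lists were not used.

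Genes were those of Ensembl release 115, and sequence was that of RefSeq. Each summit was assigned to the nearest 5′ end of a protein-coding gene record within 5 kb, and nearer genes of other biotypes were then looked up. Members, lists and motifs were chosen with earlier results of these data known. Genes are named when they had an IDR-thresholded or pooled summit, a summit in both replicates or a reported role, and those without any summit or beside a neighbour's peak were named after their values were seen. No test between conditions was possible with 1 group, and no chance test was made. Alternatives were other distances, transcript 5′ ends, all biotypes, gene bodies, higher-scoring peaks, motif windows and each replicate alone. The assignment was tested on simulated data. Work was done in Python 3.11.15 with numpy 2.4.6, pandas 2.3.3, scipy 1.17.1 and matplotlib 3.10.9.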

Additional observations from a re-analysis of the deposited data

How the results depend on the processing

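ins-39 kept its IDR-thresholded summit under every alternative run, and ins-13 did not. The count of members fell from 2 to 1 within 1 kb, with genes of every biotype competing, and with gene bodies or 2 kb upstream. The share of all protein-coding genes was 4.28% within 1 kb, 4.62% with every biotype competing and 3.61% with the higher-scoring 50% of peaks, against 6.99%. With gene bodies or 2 kb upstream it rose to 8.92%, while the count of members fell. With the higher-scoring 50% of IDR-thresholded peaks, 2 of 39 members (5.13%) kept a summit, above the 3.61% of all genes. That difference was not tested. Within 1 kb, members in the pooled list numbered 5 and in replicate 1 they numbered 8. With the higher-scoring 50% of each list the counts were 4 in the pooled list, 6 in replicate 1 and 12 in replicate 2. The shares of all genes were not worked out for these settings of the pooled and replicate lists. Members in both replicates numbered 5 when summits had to lie within 200 bp. With gene bodies, ins-13 was lost because its summits lay past its 3′ end, and the other settings admit fewer summits or shorter distances by construction. With 1 replicate left out, taking the 1803 highest-scoring peaks of the other, the members were ins-13 and ins-39 each time (2 to 2), and the share of all genes was 6.80% to 6.88%. The other alternatives stayed within 1.5 times the reported values, 25 of 37 in all. Few members, 2 replicates, unknown depth and the lack of signal tracks limit what the lists can show, and a gene without a peak may be bound below their threshold.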
